A study of Sus scrofa with 13 samples.

Results

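A set of 9 genes of iron, heme and metal handling was followed in pig livers that had undergone ischemia and reperfusion. The genes were picked by symbol from a list of 10, namely HAMP, SLC40A1, TFRC, CP, SLC39A14, MT1A, HMOX1, HPX, ALAS1 and FTH1. Of these, 9 symbols had 1 row each among the 35670 genes of the count table, all 9 were among the 16481 genes tested, and FTH1 is not analysed here. Bulk RNA sequencing covered 13 liver libraries of female Yorkshire pigs in 4 groups. Baseline held 2 libraries, labelled 1a and 2, from livers without ischemia. The ischemic controls were 3 livers with 45 min of full vascular clamping and 6 h of reperfusion and no infused cells. The arterial and the portal infusion groups held 4 livers each, with the same clamping and reperfusion, and received human bone marrow-derived mesenchymal stromal cells (BM-MSCs) at 3000000 cells per kg body weight by the hepatic artery (arterial) or by the portal vein (portal). Per the study, each control, arterial and portal library is from a separate pig. Whether a baseline library and a 6 h library came from the same animal is not given in the sources used here. Reads were counted on pig genes, and any from the infused human cells were not separated.

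The liver sets the iron level of the body. Hepatocytes secrete hepcidin, the product of HAMP, which binds the iron exporter ferroportin, encoded by SLC40A1, and has it degraded, so that less iron leaves cells. Iron enters cells on transferrin through the transferrin receptor TFRC, and in free form through the metal importer SLC39A14 (ZIP14), which also carries zinc and manganese. Ceruloplasmin, the product of CP, carries copper in plasma and oxidizes exported iron so that transferrin can take it up. Free heme is bound in plasma by hemopexin (HPX), broken down inside cells by heme oxygenase 1 (HMOX1), and made anew from a first step catalysed by ALAS1. Metallothioneins such as MT1A bind zinc and copper, and their genes respond to metals, glucocorticoids and stress.

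Libraries held from 18975413 to 35949178 counted reads (median 30260803), and between 13581 and 20282 genes had at least 1 read. Values of single genes are normalized counts, that is reads divided by DESeq2's size factor of the library. Control 2, arterial 1, portal 1 and portal 4 stood together at one end of the range for 5 of the 9 genes, as described below, so group differences were also computed without these 4 libraries. The 3 shallowest libraries were among them, at 18975413 (control 2), 20563848 (portal 1) and 21444917 (portal 4) reads, while arterial 1 had 30260803. Genes with a read numbered 16993, 15460, 13581 and 14264 in control 2, arterial 1, portal 1 and portal 4, and between 15831 and 20282 in the others. All 12 hepatocyte markers looked for, among them ALB and APOA1, were detected in every library, so the label of liver held.

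After ischemia and reperfusion, TFRC, SLC39A14 and CP lay lower in all 3 ischemic controls than in both baseline libraries. This was so for 16.3% of all genes tested. The group differences of the 3 genes were 3.38-fold, 2.13-fold and 2.43-fold, and for CP control 1 missed baseline 1a by 1.01-fold. MT1A had the highest difference upward, which rested on 1 control liver, and HAMP, HMOX1, HPX and ALAS1 overlapped with baseline. Livers of the same group differed by up to 43.6-fold for a single gene. In the comparison of these controls with baseline, an adjusted p under 0.05 was reached by 0 of the 9 genes by edgeR's quasi-likelihood fit and Benjamini-Hochberg adjustment over all 16481 genes. The background share in that comparison was 0%, that is 0 genes. At an unadjusted p under 0.05, 1 of the 9 genes (MT1A) stood beside 4.37% of all genes, and DESeq2 over all 13 libraries called 0 of the 9 and 0.0204% of all genes. The counts were also 0 of 9, with a background of 0%, in the other 5 comparisons, which set all 11 reperfused livers against baseline, then all 8 infused, the arterial and the portal livers each against controls, and last arterial livers against portal ones. In the same order 0, 1, 1, 0 and 0 of the 9 genes had an unadjusted p under 0.05, beside 4.78%, 2.14%, 1.57%, 2.79% and 2.4% of all genes, and DESeq2 called 0 in each, beside 0.0571%, 0.00408%, 0%, 0.0163% and 0.00408% of all genes. Libraries of the groups compared did not overlap for 3 of the 9 genes between controls and baseline (TFRC, SLC39A14 and CP), where 31.1% of all genes tested had no overlap, and for 1 gene (SLC39A14) between all reperfused livers and baseline, beside 7.27%. There was no such gene among the 9 in the comparisons of infused, arterial and portal livers with controls or of arterial with portal livers, beside 0.564%, 3.19%, 3.72% and 1.41% of all genes. What follows are the values of each gene, and none of the differences passed the threshold in this test.

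**Figure D1:**
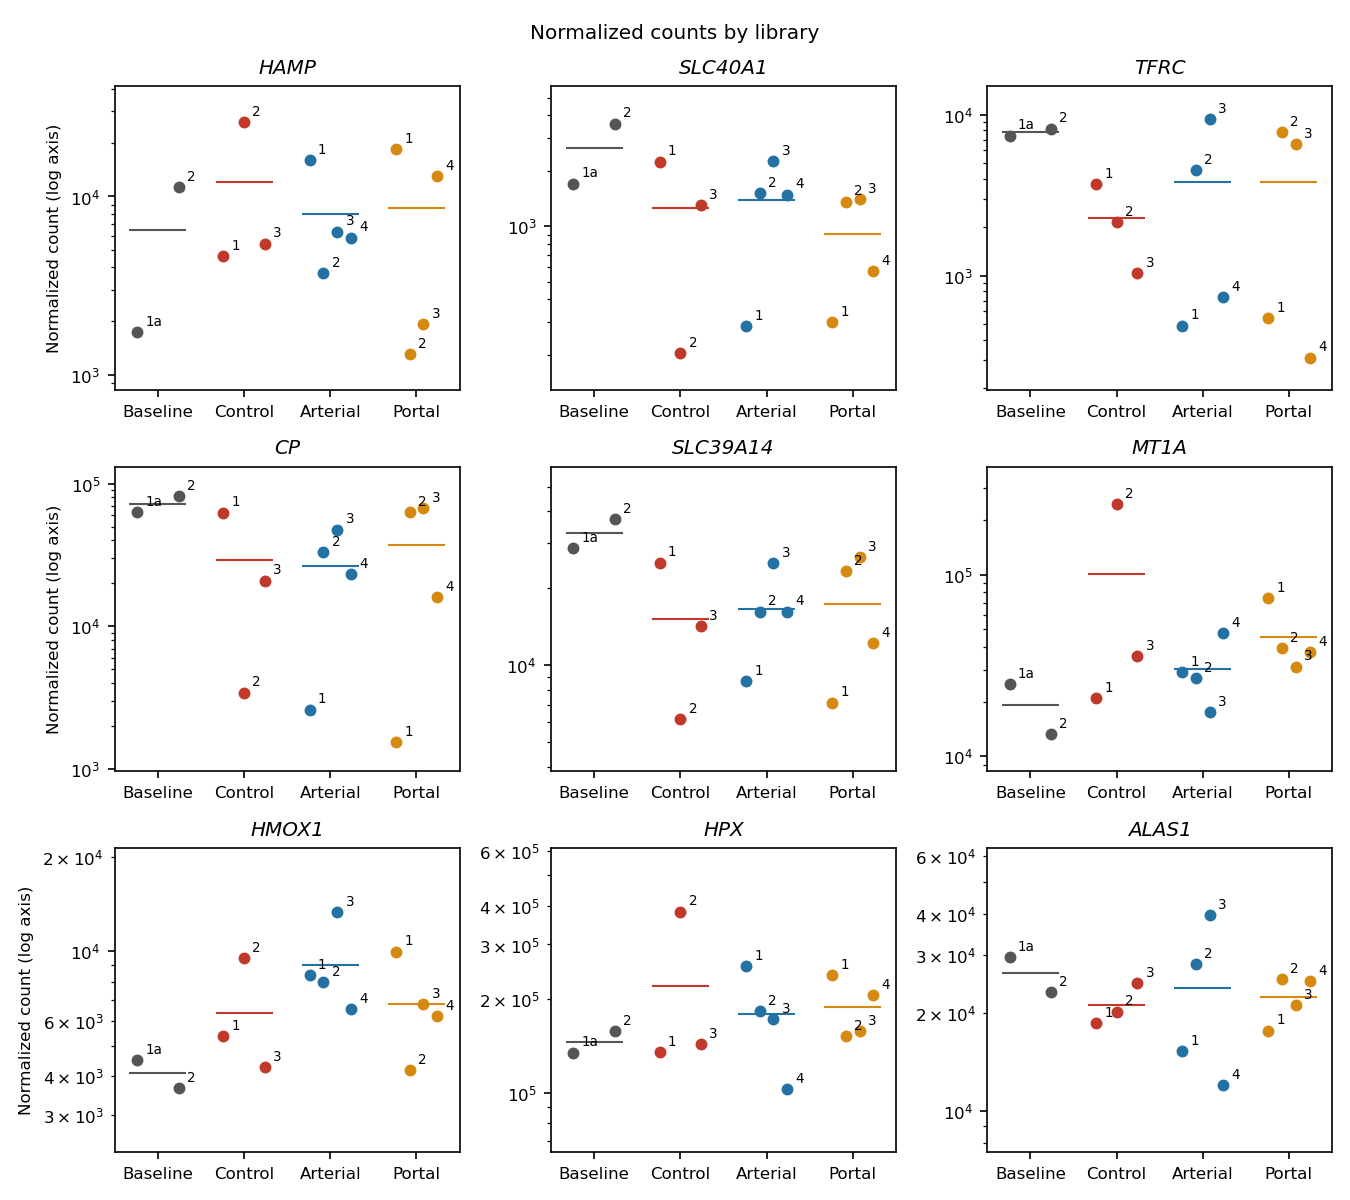
Normalized counts of the 9 genes, 1 panel per gene, on a log axis. Each point is 1 library, labelled with its replicate number, and each horizontal line is the mean of its group (n = 2, 3, 4 and 4). For CP, control 2, arterial 1 and portal 1 sit between 1542 and 3429, and the other libraries lie at 16117 or above.

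HAMP is on chromosome 6 (Sscrofa11.1, 44785863 to 44787303). It was at 1732 and 11296 normalized counts in baseline 1a and 2. In ischemic controls 1 to 3 it was at 4637, 26034 and 5435. The arterial livers had 16009.8, 3724, 6353 and 5882, and the portal livers 18433, 1308, 1932 and 12965. The groups overlapped throughout, and the 2 baseline libraries alone differed by a factor of 6.52. Group means were 6514 ± 6763 (SD, n = 2), 12035 ± 12130 (SD, n = 3), 7992 ± 5466 (SD, n = 4) and 8659 ± 8433 (SD, n = 4) for baseline, controls, arterial and portal infusion, so that every difference between them lay within the spread of the libraries. The 4 highest values of HAMP were those of control 2, portal 1, arterial 1 and portal 4.

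SLC40A1, on chromosome 15 from 94140635 to 94161793, had its lowest values in these same 4 libraries. It was at 1703 and 3615 at baseline and at 2245, 205 and 1303 in controls 1 to 3. In the arterial group it was at 286, 1518, 2255 and 1484, and portal livers 1 to 4 had 301, 1362, 1399.5 and 572. The next lowest after the 4 was control 3. The log2 fold change of controls against baseline was -1.05 ± 0.91 (SE), a mean 2.06-fold lower, with an adjusted p of 0.978 by edgeR's quasi-likelihood fit and Benjamini-Hochberg adjustment. For all 11 reperfused livers against baseline it was -1.17 ± 0.71 (SE). It was -0.58 without baseline 2, and -0.68 without the 4 libraries together. For controls against baseline it was -0.45 without baseline 2, -0.55 without control 2 and -1.81 without control 1. With 1 surrogate variable in the fit, a term for variation shared by many genes, the values were -0.45 for controls and -0.37 for all reperfused livers.

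The transferrin receptor gene TFRC lies on chromosome 13 from 133976765 to 133997554. Its normalized count was 7429 and 8217 at baseline, and 3708, 2147 and 1033 in controls 1 to 3. All 3 controls lay below both baseline libraries, as did those of 16.3% of all genes tested, and the exact permutation test (two-sided) gave p = 0.2, where 2 libraries against 3 cannot go below 0.1. The log2 fold change was -1.76 ± 1.27 (SE), a 3.38-fold lower level (adjusted p = 0.978, by edgeR's quasi-likelihood fit and Benjamini-Hochberg adjustment). The infused livers spread over a range of 30.5-fold. The arterial group had 489, 4517, 9439 and 738, and the portal group 545, 7762, 6559 and 309. Arterial 3 thus lay above both baseline libraries and portal 2 between them, while arterial 1 and 4 and portal 1 and 4 lay below every control. The log2 fold change of all reperfused livers against baseline was -1.27 ± 0.98 (SE), and -0.81 without the 4 libraries. With 1 surrogate variable it was -0.35, and -0.49 for controls against baseline.

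CP, on the same chromosome from 89396713 to 89463540, was at 63426 and 81779.6 at baseline. Controls 1 to 3 were at 62634, 3429 and 20883, all below baseline, although control 1 missed baseline 1a by 1.01-fold. The arterial group held 2608, 32959, 47592 and 23262, and the portal group 1542, 63120.4, 67161 and 16117. Over the 11 reperfused livers the values spanned 43.6-fold, and the SD on the log2 CPM scale (reads relative to library size) was 2.03, larger than that of 95.9% of all genes tested. The log2 fold change of controls against baseline was -1.28 ± 1.28 (SE) (exact permutation test, p = 0.2), and it was -0.76 without control 2 and -2.58 without control 1. For all reperfused livers against baseline it was -1.23 ± 1.00 (SE), and -0.65 without the 4 libraries. With 1 surrogate variable the values were -0.032 ± 0.45 (SE) for all reperfused livers and -0.31 ± 0.50 (SE) for controls. Without the surrogate variable, the adjusted p was 0.978 for controls and 0.879 for all reperfused livers by edgeR's quasi-likelihood fit and Benjamini-Hochberg adjustment.

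SLC39A14, on chromosome 14 from 6639485 to 6687929, was the 1 gene of the 9 whose reperfused livers all lay on one side of baseline. It was at 28735 and 37267 at baseline and at 25187, 6127 and 14211 in controls 1 to 3. After arterial infusion it was at 8623, 16197, 25127 and 16195, and after portal infusion at 7126, 23286, 26442 and 12174. All 11 reperfused livers were below both baseline libraries, as they were for 3.97% of all genes tested (exact permutation test, two-sided, p = 0.0513, where the smallest possible value was 0.0128). The mean was 16427 ± 7592 (SD, n = 11) against 33001 ± 6033 (SD, n = 2), and the log2 fold change of -1.01 ± 0.54 (SE) had an adjusted p of 0.860 by edgeR's quasi-likelihood fit and Benjamini-Hochberg adjustment. Without the 4 libraries the log2 fold change was -0.62. In controls alone against baseline it was -1.09 ± 0.68 (SE) (exact permutation test, p = 0.2). That value was -0.71 without control 2 and -1.71 without control 1. With 1 surrogate variable it was -0.63, and -0.42 for all reperfused livers. Portal 3, the highest of the reperfused livers, missed baseline 1a by 1.09-fold.

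The metallothionein gene MT1A, on chromosome 6 from 18672016 to 18673673, had normalized counts of 25004 and 13194 at baseline. Controls 1 to 3 were at 20889, 245821 and 35525, so that 1 control stood 6.92-fold above the next. Arterial livers 1 to 4 were at 29180.5, 26835, 17559 and 47513, and portal livers 1 to 4 at 74355, 39313, 31239 and 37384. The 4 portal livers lay above both baseline libraries, while control 1 and arterial 3 lay between them. For how many of all genes portal livers lay wholly above baseline was not computed. The log2 fold change of controls against baseline was 2.33 ± 0.89 (SE), with an unadjusted p of 0.0192 and an adjusted p of 0.978 by edgeR's quasi-likelihood fit and Benjamini-Hochberg adjustment, and the exact permutation test gave p = 0.5. Control 2 decided this value, which was 0.59 when that library was left out. For all 11 reperfused livers against baseline it was 1.39 ± 0.76 (SE), and 0.81 without control 2. Against controls, the infused livers had a log2 fold change of -1.42 ± 0.57 (SE) (exact permutation test, p = 0.370), arterial livers -1.70 ± 0.68 (SE), and portal livers -1.15 ± 0.67 (SE). These comparisons share the 3 controls, and without control 2 all 3 changed sign, to 0.33, 0.058 and 0.61. With voom and sample quality weights they were -0.42, -0.68 and -0.16, and the difference of controls from baseline was 1.18. Metallothionein genes are near-copies of each other, and how reads that map to several places were counted is not given in the sources used here, so that reads of MT1A and of its paralogs may have been divided between them.

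Heme oxygenase 1, encoded by HMOX1, was at 4495 and 3649 at baseline and at 5343, 9491 and 4257 in controls 1 to 3. It was at 8398, 7965, 13328 and 6546 in arterial livers 1 to 4, all above baseline. The share of all genes with arterial livers wholly above baseline was not computed. In portal livers 1 to 4 it was at 9967, 4166, 6776 and 6205. Of the 11 reperfused livers, 9 lay above both baseline libraries, and control 3 and portal 2 lay between them. By mean the order was baseline, 4072 ± 598 (SD, n = 2), controls, 6364 ± 2762 (SD, n = 3), portal livers, 6779 ± 2402 (SD, n = 4), and arterial livers, 9059 ± 2954 (SD, n = 4), but neighbours in this order did not differ beyond their spread. Its log2 fold change stayed under 1 in size in all 6 comparisons. The highest liver, arterial 3, was not among the 4 libraries at the ends of CP and HAMP.

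HPX, on chromosome 9 from 3288288 to 3297051, was at 134847 and 157734 at baseline and at 135031, 382557 and 143608 in controls 1 to 3. Arterial livers 1 to 4 had 256064, 183385, 172435 and 103181, and portal livers 1 to 4 had 239008, 151994, 158204 and 206716. Control 2, arterial 1, portal 1 and portal 4 were the 4 highest libraries. Outside them, the 9 libraries lay between 103181 and 183385. The SD of HPX over the reperfused livers was 0.48 on the log2 CPM scale, larger than that of 14.9% of all genes tested, so that it was among the steadier genes.

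ALAS1, on chromosome 13 from 34333263 to 34347435, was at 29527 and 23161 at baseline and at 18583, 20136 and 24564 in controls 1 to 3. Arterial livers 1 to 4 had 15239.8, 28188, 39721 and 11998, and portal livers 1 to 4 had 17628, 25282, 21133 and 25014. Baseline lay inside the range of the arterial livers, and the groups overlapped. Of the 6 comparisons, none gave a log2 fold change beyond 0.33 in size for ALAS1.

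**Figure D2:**
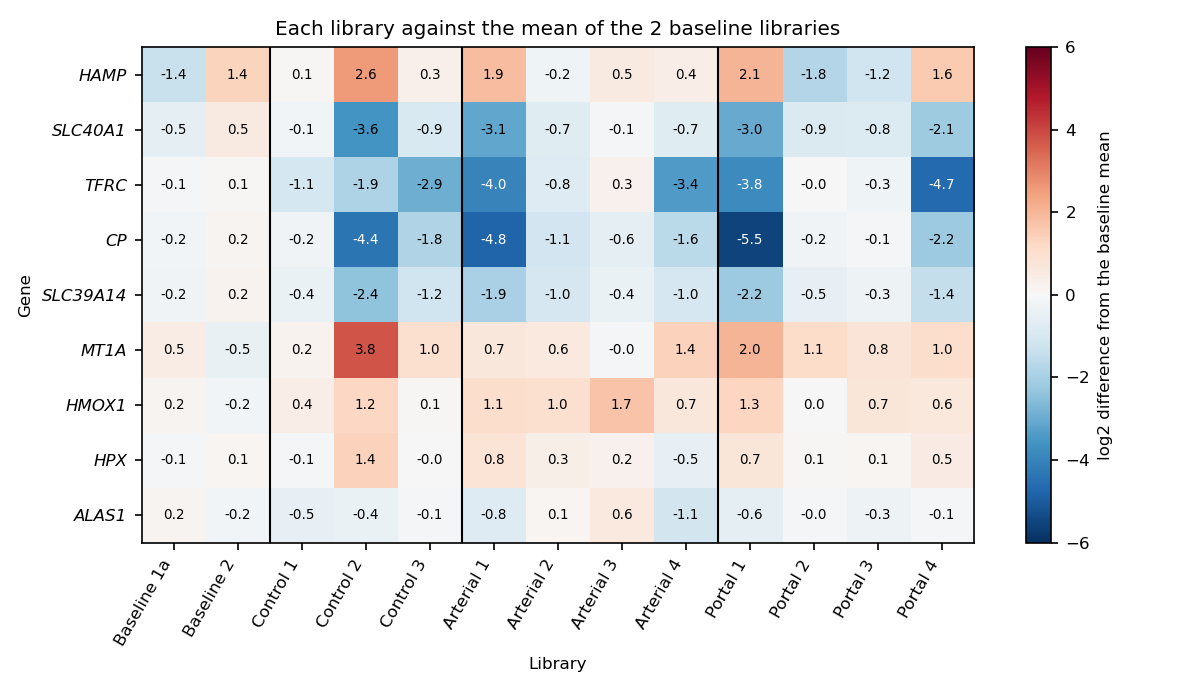
Difference of each library (columns, ordered by group) from the mean of the 2 baseline libraries on the log2(normalized count + 1) scale, for the 9 genes (rows). Blue is lower and red higher, and CP reached -5.5 in portal 1 while MT1A reached 3.8 in control 2.

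Read by library in place of by group, 5 of the 9 genes had the same 4 libraries at one end of the range. These libraries were singled out after seeing the data, so the count is a description and not a test. Control 2, arterial 1, portal 1 and portal 4 were the 4 lowest of the 13 libraries for SLC40A1, SLC39A14 and CP, which was the case for 10.1% of all genes tested. The same 4 were the highest for HAMP and HPX, as for 8.86% of all genes. They were 1 control, 1 arterial and 2 portal livers. For CP the boundary was narrow, with portal 4 at 16117 and control 3 at 20883, and for SLC40A1 it was wide, with portal 4 at 572 and control 3 at 1303. TFRC was low in arterial 1, portal 1 and portal 4 and in arterial 4, and control 2 was not among its lowest 4. HMOX1, MT1A and ALAS1 did not have these 4 libraries at either end.

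Ratios of reads between 2 genes of the same library do not depend on the scaling of the library. They were compared between libraries only, since the genes differ in length. HPX reads per CP read numbered 2.13 and 1.93 in baseline 1a and 2. In controls 1 to 3 the ratio was 2.16, 112 and 6.88. In arterial livers 1 to 4 it was 98.2, 5.56, 3.62 and 4.44, and in portal livers 1 to 4 it was 155, 2.41, 2.36 and 12.8. Every one of the 11 reperfused livers was above both baseline libraries, by between 1.01-fold and 72.9-fold against baseline 1a. ALAS1 reads per HMOX1 read also kept the groups apart, with 6.57 and 6.35 at baseline and between 1.77 and 6.07 in the reperfused livers. Such a separation was found for 4 of the 36 pairs of the 9 genes, the other two being HMOX1 with SLC39A14 and SLC39A14 with HPX. The pairs share genes, and SLC39A14 alone lay wholly below baseline. The share over all pairs of genes was not computed, so whether 4 of 36 is many cannot be told. HAMP reads per SLC40A1 read, the hormone over its target, numbered 1.02 and 3.12 at baseline and 2.07, 127 and 4.17 in controls. The ratio was 55.9, 2.45, 2.82 and 3.96 in arterial livers and 61.3, 0.960, 1.38 and 22.7 in portal livers. Portal livers 2 and 3 were thus within or just under the baseline range, while portal livers 1 and 4 were far above it.

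**Figure D3:**
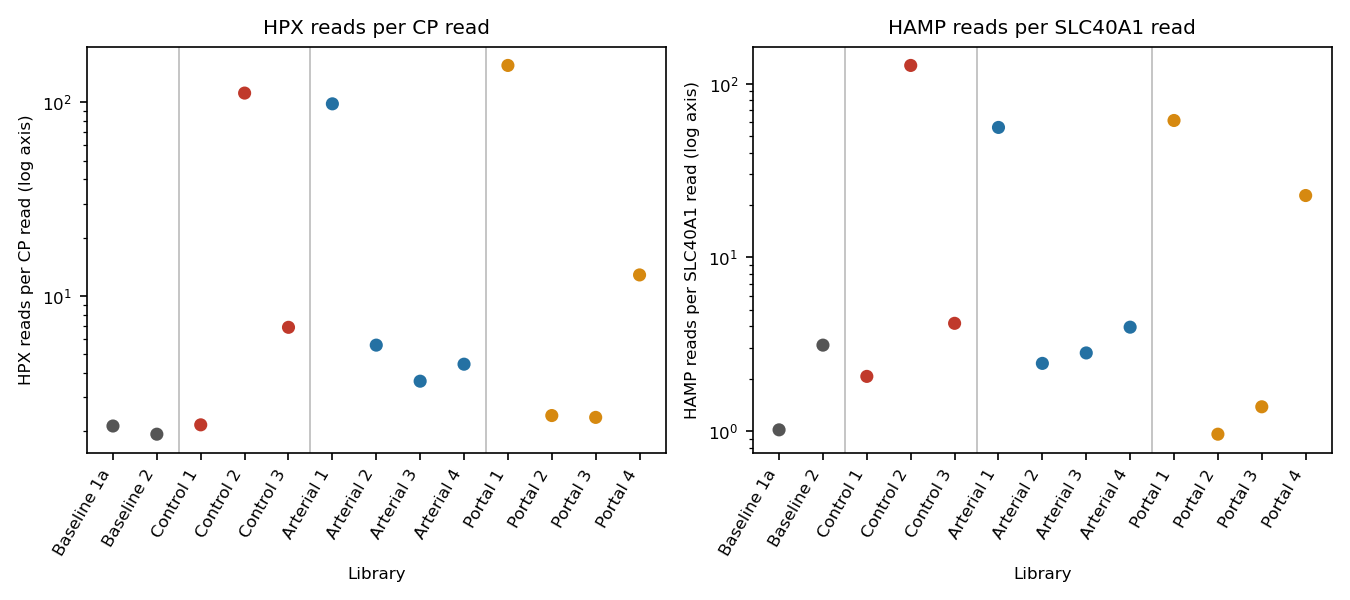
Reads of HPX per read of CP (left) and of HAMP per read of SLC40A1 (right) in each of the 13 libraries, on log axes, coloured by group. HPX per CP reached 112 in control 2, 98.2 in arterial 1 and 155 in portal 1, and was 2.13 and 1.93 at baseline.

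In bulk tissue, fewer cells of a type and less RNA per cell cannot be told apart. The summed level of the 12 hepatocyte markers was 1600372, 1876959, 1058079 and 1221255 normalized counts in control 2, arterial 1, portal 1 and portal 4. It was between 1863492 and 3692903 in the other 9 libraries. The 9 erythroid markers found of 12, which include HBB and ALAS2, summed to 29334, 4776, 18156 and 5197 in those 4 libraries and to between 1031 and 13800.5 in the others, and KLF1 had 0 reads in 12 of the 13 libraries. The 7 neutrophil markers found of 10 summed to 13247, 10035, 4035 and 2929.6 in the 4 libraries and to between 910.2 and 7422 in the others. The 10 macrophage and Kupffer cell markers found of 11 were between 25122 and 65639.9 in the 4 and between 25014 and 51169.7 in the others. By group, the macrophage sum was between 38267 and 65639.9 in controls and between 25122 and 35669.5 in infused livers, which did not overlap. The baseline libraries 1a and 2 had 38858 and 25014. For CD163, a marker in this sum, the groups did overlap. It was at 9303, 4534 and 6900 in controls 1 to 3 and between 914 and 7755 in infused livers. How often sums of other genes part these groups was not computed. The 9 stellate and stromal markers were between 4813 and 10704 in the 4 and between 10349 and 39095 in the others, and the 7 lymphocyte markers between 964 and 2608 in the 4 and between 359.95 and 1619.5 in the others. Endothelial and cholangiocyte sums of the 4 lay inside the range of the others. The part of these cell types, of depth and of the number of genes detected in the values of the 9 genes was not tested.

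**Figure D4:**
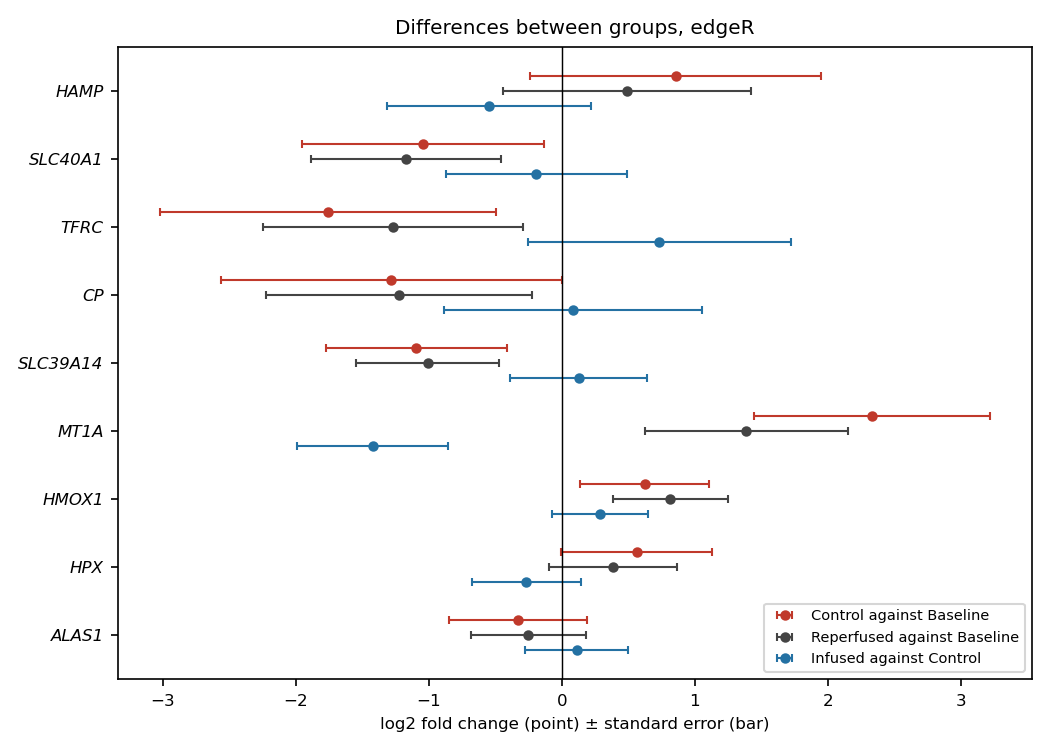
Log2 fold changes (points) with standard errors (bars) of the 9 genes in edgeR's fit, for ischemic controls against baseline, all reperfused livers against baseline and all infused livers against controls. The largest values are 2.33 for MT1A and -1.76 for TFRC in controls against baseline, and 0 of the points passed the threshold.

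No difference between infused livers and controls was called for the 9 genes. Against controls, the log2 fold changes over all 8 infused livers lay between -1.42 (MT1A) and 0.73 (TFRC), with a median of 0.08 beside -0.02 over all genes tested, and 5 of the 9 were above 0. For 0 of the 9 genes did all infused livers lie outside the range of the controls, beside 0.564% of all genes. The 95% interval of the log2 fold change was -0.48 to 1.06 for HMOX1, -2.19 to 1.09 for HAMP and -1.98 to 2.15 for CP. The sign for CP turned with the scaling of the libraries, from 0.08 with TMM to -0.06 with no scaling beyond the total count. Arterial against portal livers differed by between -0.55 (MT1A) and 0.60 (SLC40A1), and the interval for HMOX1, which had the higher mean after arterial infusion, was -0.33 to 1.26.

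A further 8 lists of genes of these pathways held 148 symbols, of which 129 had a row and 125 were tested. In controls against baseline 0 of the 125 passed the threshold by edgeR's quasi-likelihood fit and Benjamini-Hochberg adjustment, and 7 higher and 2 lower genes (7.2%) had an unadjusted p under 0.05, beside 4.37% of all genes. The 17 tested genes of iron-sulfur cluster assembly had a median log2 fold change of 0.69, with 15 above 0, where the median of all genes was 0.00481. Control 2 was the highest control for some of them, such as ISCU, at 1898, 6321 and 3214 in controls 1 to 3. It was the lowest for others, such as HSPA9, at 30016, 10890 and 16116. The median without control 2 was not computed. The 15 genes of iron uptake and transport had a median of -0.60, with 9 below 0. The 8 genes of iron storage and sensing had a median of -0.12, the 23 of hepcidin control -0.22, the 18 of heme synthesis 0.21, the 10 of heme breakdown and scavenging 0.13, the 14 of copper 0.26 and the 20 of zinc and metallothionein -0.21. In none of these lists did a gene pass the threshold in any of the 6 comparisons.

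Among single genes of these lists, the metallothionein MT1X was at 16587 and 29631 at baseline and at 61324, 295508 and 40202 in controls 1 to 3, with a log2 fold change of 2.48 ± 1.05 (SE). Like MT1A it was highest in control 2, and its row carries a symbol only in the table of pig gene names. HMOX2, the constitutive heme oxygenase, was at 1875 and 1750.1 at baseline and at 2699, 11879 and 6598 in controls 1 to 3, a log2 fold change of 1.93 ± 0.80 (SE). STEAP4, a metalloreductase for iron and copper, was at 6066 and 10773 at baseline and at 4071, 1180.2 and 3634 in controls, a log2 fold change of -1.48 ± 0.65 (SE). SOD3, a secreted copper and zinc superoxide dismutase, was at 208 and 182.5 at baseline and at 517, 2108 and 1068 in controls, and its log2 fold change was 2.62 ± 1.01 (SE). The control libraries of these 4 genes did not overlap with baseline, as was so for 31.1% of all genes.

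COX17, a copper chaperone, TSPO, an outer mitochondrial membrane protein that binds porphyrins, the mitochondrial carrier SLC25A39 and MT3 also had an unadjusted p under 0.05. Each had the higher mean in controls, with log2 fold changes of 1.47, 2.09, 1.52 and 2.40. Among the controls, all 4 genes were highest in control 2, and TSPO and MT3 overlapped with baseline. COX17 was at 2525, 5315 and 1375 in controls 1 to 3, against 1250 and 923 at baseline. SLC25A39 was at 3939, 10041 and 3075 in controls 1 to 3, against 2378 and 1503 at baseline. TSPO was at 136, 1152 and 525 in controls 1 to 3, against 137 and 138 at baseline. MT3 was at 18.5 and 86.5 at baseline. NR1I2, a nuclear receptor that induces ALAS1, was lower in controls, with a log2 fold change of -1.03. In all 11 reperfused livers against baseline, SLC39A8 (log2 fold change -1.07), PPOX (-1.38), HJV (1.53) and BLVRB (1.69) entered the list of genes with an unadjusted p under 0.05. HJV is the coreceptor through which bone morphogenetic proteins induce hepcidin, PPOX acts late in heme synthesis, and BLVRB reduces biliverdin. BLVRB was at 1336 and 816.5 at baseline and between 1376 and 7190.2 in the 11 reperfused livers, all above it, as for 3.3% of all genes. Against controls, infused livers had 2 genes of the 125 with an unadjusted p under 0.05, NR1I2 with 0.87 and MT3 with -2.12, which is 1.6% beside 2.14% of all genes. MT3 was at 749 in control 2 and at 73.6 and 36.1 in controls 1 and 3.

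After portal infusion LCN2, which binds iron-carrying siderophores, was at 3382, 5959, 7105 and 8671, against 2944, 3711 and 1554 in controls, with a log2 fold change of 1.18 ± 0.47 (SE). Arterial livers 1 to 4 were at 3639, 1672, 1777 and 2650.1, and the log2 fold change of arterial against portal livers was -1.36 ± 0.43 (SE). The adjusted p was 1 for portal livers against controls and 0.9996 for arterial against portal livers by edgeR's quasi-likelihood fit and Benjamini-Hochberg adjustment. LTF, the gene of lactoferrin, was at 69.2, 195.2, 89.3 and 113 in portal livers, against 195.4, 324 and 554 in controls. The portal livers were lower, but portal 2 and control 1 nearly met, and the difference did not pass the threshold. Portal livers and controls did not overlap for 3.72% of all genes. The baseline libraries were at 89.5 and 142.4 for LTF, and the arterial livers between 94.9 and 492.5. CYBRD1, MELTF and MT3 had an unadjusted p under 0.05 between arterial and portal livers, each with the higher mean in arterial livers. MELTF was at 15.8 or less in every library. With LCN2 these were 4 of the 125 genes of the lists, which is 3.2% beside 2.4% of all genes. For portal livers against controls it was also 4 of the 125, 3.2% beside 2.79% of all genes. Of those, 2 were of iron uptake and transport, 1 of heme synthesis and 1 of zinc and metallothionein.

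**Figure D5:**
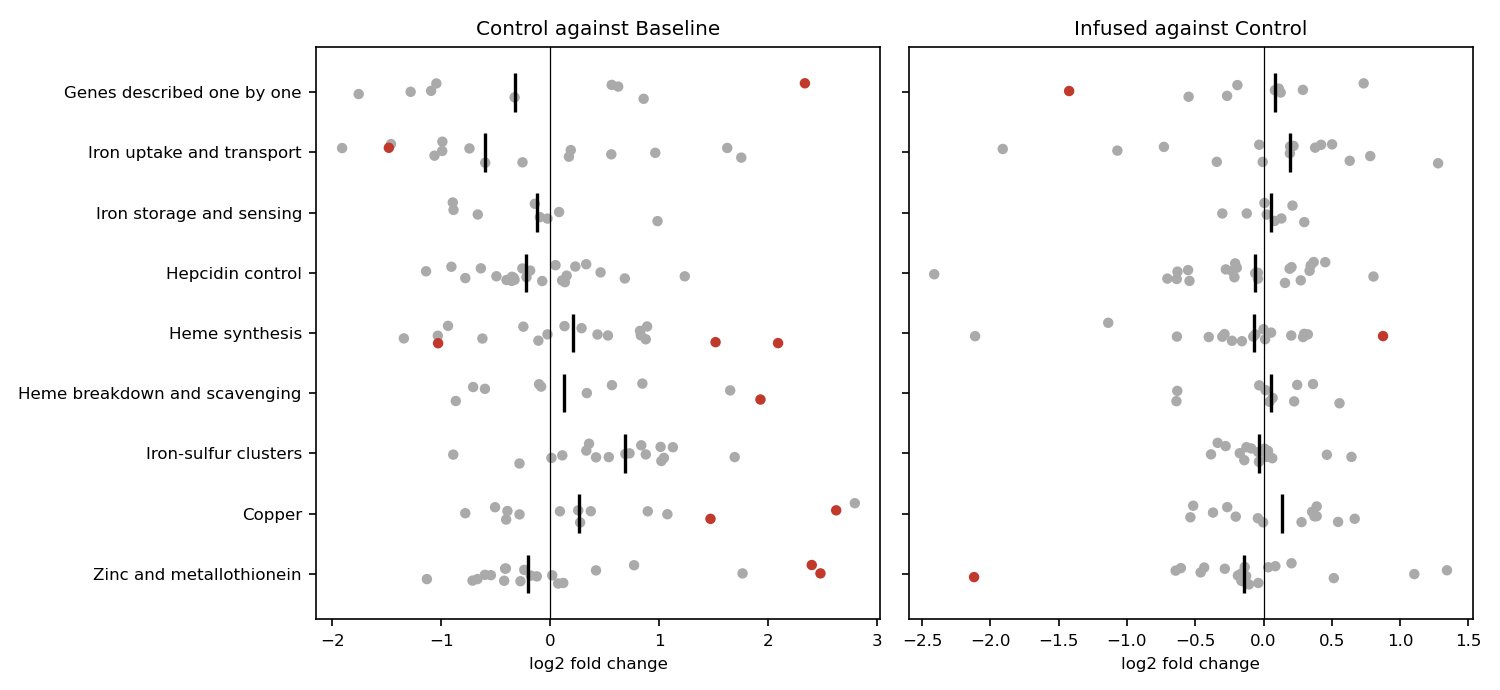
Log2 fold changes of the 9 genes (top row) and of the tested genes of the 8 lists, in controls against baseline (left) and infused livers against controls (right). Each point is a gene, red where the unadjusted p is under 0.05, and black bars are medians, with 0.69 for iron-sulfur cluster genes in controls against baseline.

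By the highest Pearson correlation of log2 CPM over the 13 libraries, the genes whose pattern was most like CP were HSPA13 (r = 0.993) and COPB2 (r = 0.990). For SLC39A14 they were WDR3 (0.984) and RHOBTB3 (0.981), for SLC40A1 DPYD (0.977) and GHR (0.974), for HPX TIMM17B (0.970) and NENF (0.960), and for TFRC YRDC (0.963) and CHERP (0.956). HAMP was most like MIP (0.924) and SLC5A10 (0.891), and MT1A most like CNN2 (0.911) and METTL23 (0.893). Without the 4 libraries that stood apart METTL23 had r = 0.548, so that its likeness to MT1A rested on few libraries, and the other 17 genes named had between 0.775 and 0.957. The closest genes were less close for ALAS1, namely SLC35D2 (0.813) and FUT1 (0.805), and for HMOX1, namely NSFL1C (0.811) and BID (0.806). Between the 9 genes, SLC39A14 and CP had r = 0.96 and SLC40A1 and SLC39A14 r = 0.95. Without the 4 libraries these were 0.94 and 0.72, and that of HAMP and SLC40A1 turned from -0.63 to 0.63. The points share their library's depth, group and scaling, and the values are descriptions of these 13 libraries.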

How the data were processed

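Per the study's methods, the authors filtered reads on quality, aligned them (HISAT2, pig build Sscrofa11.1) and assigned them to Ensembl genes by FeatureCounts. The authors deposited raw counts without normalization, 1 column per library. Tool versions, and how multi-mapping reads were treated, are not given in the sources used here. The libraries were non-directional, so reads of overlapping genes on opposite strands cannot be told apart. Counts are reads and not molecules, and totals were between 18975413 and 35949178 per library. Groups came from the sample labels, and 0 value columns were left without a sample. No 2 libraries of a group were copies, the smallest chi-square per gene being 77.1.

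Tests used R 4.3.3 and edgeR 4.0.16 (filterByExpr, TMM, quasi-likelihood test, Benjamini-Hochberg adjustment over 16481 genes, threshold 0.05), with the 4 groups in 1 fit. DESeq2 1.42.0 gave size factors and an alternative test. Exact permutation tests were two-sided on log2(normalized count + 1). Log2 CPM used a prior count of 2. The edgeR and DESeq2 fits were checked on simulated data. The genes, lists and markers were chosen with earlier results of these data known. Fold changes are printed for a gene whose libraries did not overlap, whose unadjusted p was under 0.05, or whose log2 fold change was 1 or more in size. From the lists, genes with an unadjusted p under 0.05 are named, at most 4 a list with the smallest p, and for each of the 9 genes the 2 genes most like it. Coordinates are those of RefSeq for Sscrofa11.1, matched by symbol.

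Alternatives were DESeq2 over all or only the compared libraries, edgeR over only those, RLE scaling, no filter or at least 10 reads in every library, the replicate number as a block, 1 surrogate variable (sva 3.50.0), voom with sample quality weights (limma 3.58.1) and each library left out in turn. Leaving out control 2, arterial 1, portal 1 and portal 4 together was chosen after seeing the data.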

Additional observations from a re-analysis of the deposited data

How the results depend on the processing

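The count of the 9 genes past the threshold was 0 in each of the 6 comparisons and stayed 0 under all 23 alternatives, 138 counts in all. Over all genes most alternatives also called 0. The exceptions were DESeq2 over only the groups compared (166 genes for controls and 14 for reperfused livers against baseline, 3 for portal livers against controls), DESeq2 over all 13 libraries (between 0 and 14), voom with quality weights (111 for reperfused livers against baseline), no filter on low counts (30 and 28 in the comparisons with baseline and between 5 and 19 in the others), and the 4 libraries left out together (1 for infused and 1 for arterial livers against controls). Of 299 log2 fold changes recomputed for the 13 differences followed, 293 kept their direction and 0 passed the threshold. Not all of these values and counts could differ. For all reperfused livers against baseline, the compared libraries are all 13, so 2 alternatives repeat the edgeR and DESeq2 values. Leaving out a library of a group outside a comparison acts on it only through the shared fit. Size was less stable than direction. With 1 surrogate variable, CP went from -1.23 to -0.032, SLC40A1 from -1.17 to -0.37, TFRC from -1.27 to -0.35, SLC39A14 from -1.01 to -0.42 and MT1A from 1.39 to 0.86 for all reperfused livers against baseline. Voom with quality weights took MT1A from 2.33 to 1.18 in controls against baseline and from -1.42 to -0.42 in infused livers against controls. The cause was not tested. The 6 that turned were those of MT1A against controls without control 2, alone or with the other 3 libraries. With each library left out in turn, MT1A lay between -1.90 and 0.33 for infused livers against controls, between -2.17 and 0.058 for arterial and between -1.64 and 0.61 for portal livers. With the 4 libraries left out together, it was 0.22, 0.11 and 0.34 in the same order. The lowest adjusted p under any alternative was 0.131, for MT1A in controls against baseline with DESeq2 over those 5 libraries alone. Same-numbered libraries had correlations of their deviations from group means between -0.42 and 0.43, and 5 of 16 pairs were above 0.1. With groups of 2 to 4 libraries, such correlations can neither show nor exclude a shared animal. The deviations of the 2 baseline libraries are mirror images of each other. With the replicate number as a block (baseline 1a taken as number 1) the count was 0 in each comparison, and the log2 fold change of MT1A in controls against baseline was 2.35. The precision was limited by the spread between livers, and the 95% interval of the log2 fold change of CP in controls against baseline ran from -4.02 to 1.46.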

Other observations

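A pair of genes of the lists, chosen after their values were seen, had reperfused livers on one side of baseline. Other genes of the lists did so too, among them BLVRB, PPOX, SLC39A8 and COX17, and their number among the 125 tested was not counted. TF, the gene of transferrin, which carries iron in plasma, was at 273546 and 351673 normalized counts at baseline and between 22259 and 248995 in the 11 reperfused livers, with portal 1 lowest and portal 2 highest. Its log2 fold change of all reperfused livers against baseline was -1.31 with a standard error of 0.70 (adjusted p = 0.860, by edgeR's quasi-likelihood fit and Benjamini-Hochberg adjustment). FTL, the light chain of the iron store ferritin, was at 60416 and 80798.5 at baseline and between 84330.5 and 239827 in the reperfused livers, with control 1 lowest and control 2 highest. Its log2 fold change was 0.90 with a standard error of 0.50 (adjusted p = 0.860 in the same test). Reperfused livers lay wholly below baseline for 3.97% and wholly above it for 3.3% of all genes tested. TF had its 4 lowest values, and FTL its 4 highest, in control 2, arterial 1, portal 1 and portal 4. These 4 libraries were the lowest for 10.1% and the highest for 8.86% of all genes tested.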
